A study of Mus musculus with 6 samples.

Results

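Solute carriers were followed in epididymal white adipose tissue (WAT) of mice after timed sleep restriction (TSR) and in control mice. These are the membrane proteins that carry amino acids, ions, metals, vitamins, nucleotide sugars and organic acids across the plasma membrane and the membranes of organelles. The members were all probe sets annotated to exactly 1 gene symbol of the Slc or Slco nomenclature, with the glucose carriers (Slc2a), the mitochondrial carriers (Slc25a) and the fatty acid carriers (Slc27a) left out. This rule gave 340 probe sets of 219 genes in 46 families, of 12394 genes with a symbol on the arrays. The rule itself reads only the annotation of the probe sets.

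A solute carrier either lets its substrate run down a gradient, exchanges it for a different solute, or couples it to sodium, proton or chloride gradients, which the sodium pump and the proton pumps maintain. Some carriers reach the cell surface only with a partner protein, such as the heavy chain encoded by Slc3a2 for the light chains of the Slc7 family. In fat cells such carriers take up amino acids, phosphate and vitamins, release lactate, and supply the Golgi apparatus with the nucleotide sugars needed to build glycoproteins.

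The TSR group held 3 samples from wild-type C57BL/6 mice that were kept awake by gentle handling for 6 h per day on 5 days and were killed on the last of these days at ZT18, the middle of the dark phase. The control group held 3 samples from C57BL/6 mice without TSR, collected at the same ZT18. According to the methods all mice were young adult males. The sample labels state freezing in liquid nitrogen and Trizol extraction, whereas the methods state RNAlater and a lipid tissue kit, and neither says whether an array held 1 animal or a pool, so that each p-value speaks of the spread among these arrays alone. RNA was measured on Affymetrix arrays, 1 array per sample, and a value is the MAS5 signal of a probe set on a linear scale, without unit and not comparable between probe sets. Median signals lay between 136 and 141 on the TSR arrays and between 127 and 131 on the control arrays. All 9 adipocyte markers measured were bright enough to be tested. Precision is limited by there being 3 arrays per group.

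Of the 219 solute carrier genes, 117 had a probe set bright enough to be tested (the 35% dimmest probe sets were left out), and 102 did not. TSR was compared with control on log2 signals with limma, and p-values were adjusted over all 14707 probe sets tested (Benjamini-Hochberg, threshold 0.05). Each gene was represented by its brightest probe set. After TSR, 32 of the 117 genes were higher, 17 were lower and 68 did not pass the test. In 8 of these 68 (Slc11a2, Slc12a2, Slc31a2, Slc35a1, Slc39a3, Slc44a2, Slc46a1 and Slco3a1) another probe set was called higher, and in 0 another was called lower. Among the genes tested, 4 (Slc15a3, Slc17a3, Slc22a12 and Slc38a3) passed the filter on dim probe sets through their TSR samples alone, since the control mean lay under it, and 2 of these (Slc17a3 and Slc38a3) were called higher. The same held for the dimmer probe sets called higher in Slc31a2 and Slc46a1, which did not pass without the filter (adjusted p = 0.083 and 0.093 in limma). The called share was 41.9%, against 47% of all 8619 genes tested, of which 24% were higher and 23% lower. Solute carriers were thus not called more often than other genes, and what follows describes which of them moved. By probe set, 50 of 168 were higher and 18 lower, against 25.6% and 21% of all probe sets tested. All 49 called genes had no overlap between the groups, which with 3 arrays per group adds little to the test itself. Of them 41 kept the call when any array was left out, a count given here without its counterpart over all called genes. Counted without the test, the 3 TSR signals all exceeded the 3 control signals in 41 genes and all lay below them in 20, while 56 genes overlapped. Over all genes tested, these shares were 29.3% and 27.6%. Changes were mostly moderate. Only 4 called genes (Slc17a3, Slc38a3, Slc19a1 and Slc7a5) were at least 2-fold higher and 0 were at least 2-fold lower, where 1.68% and 1.4% of all genes were. The log2 fold change (TSR minus control) had a median of 0.11 over the solute carrier genes and 0.01 over all genes, and ran from -0.78 to 1.11.

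**Figure D1:**
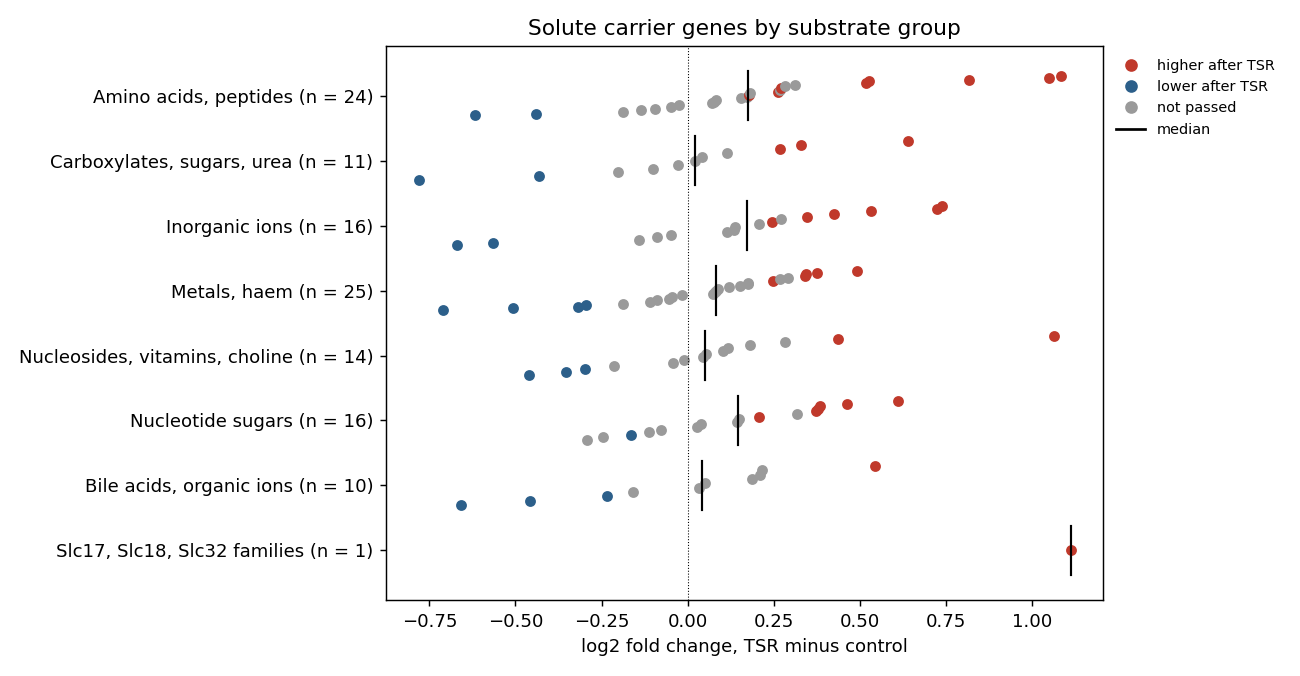
Log2 fold changes (TSR minus control, horizontal axis) of the 117 tested solute carrier genes, by substrate group. Each point is a gene, red where higher after TSR, blue where lower and grey where the test was not passed, and the black bar is the median of the group. Most groups hold rises and falls together, and medians lie between 0.02 and 0.18, apart from the last group with its 1 gene at 1.11.

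The excess of rises over falls depended on how the arrays were scaled. Rises made up 65.3% of the called solute carrier genes with the signals as deposited. With quantile normalization 28 genes were higher and 23 lower (54.9% rises), beside 19.7% and 25.3% of all genes. With each array centred on its median, 22 were higher and 24 lower (47.8% rises), beside 14.9% and 32.7% of all genes. Median centring moved the median of all genes by -0.11, to -0.10, and the median of the solute carriers then lay at 0.01. With quantile normalization the medians were -0.04 over all genes and 0.03 over the solute carriers. The median of the solute carriers thus lay above that of all genes under each scaling. Several control RNAs on the arrays also differed between the groups. The log2 signal of the 5′ probe set minus that of the 3′ probe set averaged -0.67 ± 0.0013 in TSR and -1.22 ± 0.01 in control samples for beta-actin, and 0.13 ± 0.05 in TSR and -0.52 ± 0.07 in control samples for Gapdh (SD, n = 3 each). In the same measure, TSR minus control was 1.52 for the bacterial control dap and 1.06 for thr (r2-Bs probe sets). It was -0.07 for 18S RNA, -0.08 for bioC and 0.02 for cre (the last 2 by r2 probe sets). The part of these differences in the results was not tested. In 27 of 39 solute carrier genes with several tested probe sets (69.2%), the dimmest probe set had the higher log2 fold change, with a median difference of 0.18. Over all 3236 such genes the share was 69.2% and the difference 0.16.

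The largest rises fell in carriers of different substrates, namely urate and phosphate (Slc17a3), glutamine (Slc38a3), folate (Slc19a1), large neutral amino acids (Slc7a5), GABA and taurine (Slc6a13), sulphate (Slc26a2) and phosphate (Slc20a1). The largest falls were in carriers of dicarboxylates (Slc13a3), iron (Slc40a1), chloride and bicarbonate (Slc4a3), steroid sulphates (Slc10a6) and glutamate (Slc1a3). Absence of overlap between TSR and control samples was a condition for these rankings, and all called genes met it.

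**Figure D2:**
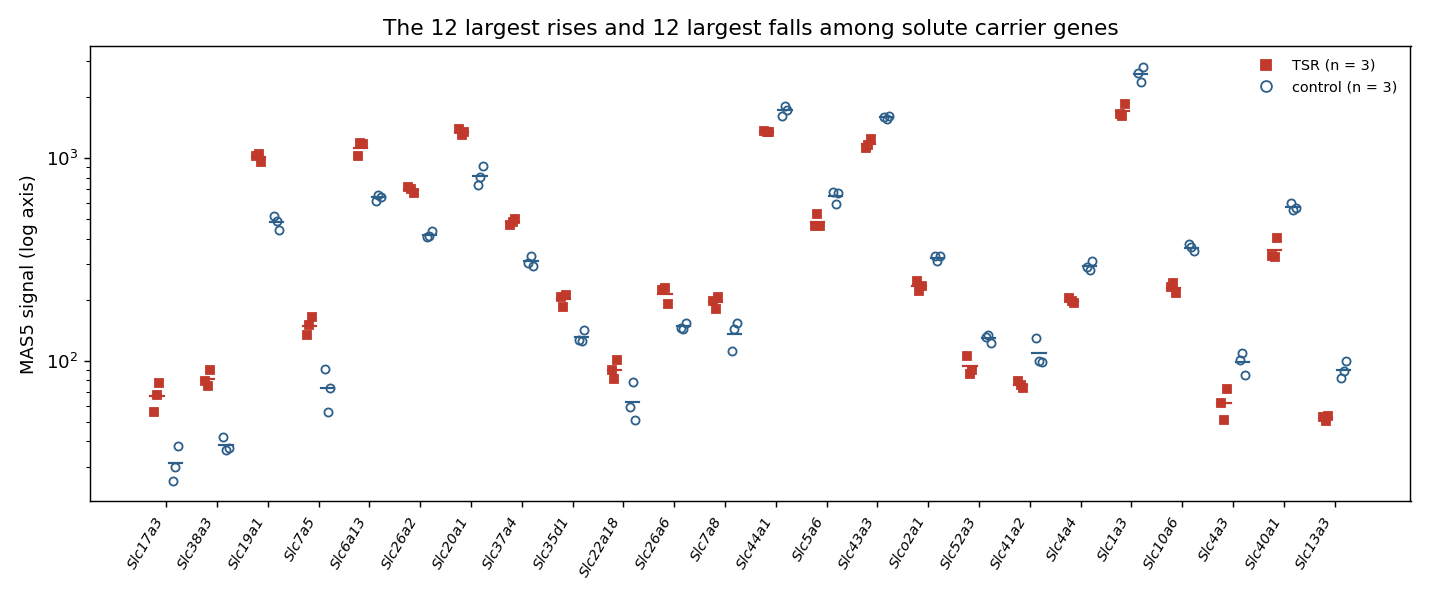
MAS5 signals (log axis) of 24 solute carrier genes, the 12 that rose most and the 12 that fell most after TSR, ordered by log2 fold change. Red squares are the 3 TSR samples, open blue circles the 3 control samples and horizontal bars their means. Only called genes without overlap between TSR and control samples were eligible.

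Amino acid and peptide carriers were not called more often than other genes, and most of those called were higher after TSR. Of 46 genes measured, 24 were tested, of which 8 were higher after TSR, 2 were lower and 14 did not pass, with a median log2 fold change of 0.18. The called share was 41.7%, against 47% of all genes tested (24% higher and 23% lower). The median stayed above 0 with quantile normalization (0.16) and with median centring (0.07), where 8 and 5 genes were higher, beside 19.7% and 14.9% of all genes. The rises included the heavy chain of the heteromeric amino acid transporters together with several of its light chains. Slc3a2, the heavy chain, had signals of 2457, 2441 and 2209 in TSR samples, against 1576, 1655 and 1730.4 in control samples. The groups were far apart, with means of 2369 ± 139 in TSR and 1654 ± 77.3 in control samples (SD, n = 3 each), a log2 fold change of 0.52 (SE 0.06) and an adjusted p of 0.00013 in limma. Slc7a5, the light chain LAT1 that exchanges large neutral amino acids such as leucine, reached 133, 149.9 and 164 in TSR samples, against 91.0, 55.8 and 73.1 in control samples. Its mean signal was 2.04 times that of control samples (log2 fold change 1.05, SE 0.19, adjusted p = 0.0018 in limma), and its lowest TSR sample lay well above its highest control sample.

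The other light chains rose less. Slc7a8 (LAT2), with a substrate range that overlaps that of LAT1, had 197, 181 and 206 in TSR samples and 111, 143 and 154 in control samples (log2 fold change 0.53, adjusted p = 0.012 in limma). Slc7a10, the neutral amino acid exchanger Asc-1 known as a surface protein of white fat cells, had 3489, 3513 and 3001 in TSR samples and 2752, 2729.6 and 2783 in control samples. The rise of Slc7a10 was smaller (0.27, adjusted p = 0.0071), and its TSR samples spread more widely than its control samples. Slc7a6, a light chain that exchanges cationic for neutral amino acids, rose by a similar step in both of its probe sets (0.26 each, adjusted p = 0.014 and 0.020), although the brightest just missed the threshold without TSR replicate 3 (adjusted p = 0.051). In contrast Slc7a7, a light chain of the same kind, had overlapping groups, with 59.9, 67.5 and 79.3 in TSR and 83.1, 55.7 and 91.8 in control samples (-0.14, adjusted p = 0.64). Thus 4 of the 5 tested light chains that pair with Slc3a2 were higher after TSR. Of all 6 tested Slc7 genes 4 were higher and 0 lower, while 3 were higher with quantile normalization and 2 with median centring. Over all genes tested, 24% were higher and 23% lower with the signals as deposited.

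Among sodium-coupled carriers the picture was divided. Slc6a13, a carrier of GABA and taurine, was among the clearest rises of all solute carriers. Its signals were 1027, 1185 and 1167 in TSR samples and 616, 657 and 644 in control samples, with means of 1126 ± 86.7 in TSR and 639 ± 20.7 in control samples (SD, n = 3 each). The log2 fold change was 0.82 (SE 0.06, adjusted p = 2.0e-05 in limma). Slc38a3, a glutamine carrier best known from liver, kidney and brain, had 79.2, 75.3 and 89.6 in TSR samples, against 42.0, 36.2 and 36.9 in control samples (1.08, SE 0.17, adjusted p = 0.00085), and its mean log2 signal of 6.34 in TSR and 5.26 in control samples reached the filter (5.45) in TSR samples alone. Slc38a10, an intracellular carrier related to it, rose by 0.18 in its brightest probe set (adjusted p = 0.0061) and by 0.40 and 0.45 in the probe sets next to it in brightness. Its dimmer tested probe sets overlapped between the groups and did not pass (0.09, 0.34 and 0.13, adjusted p = 0.72, 0.14 and 0.64). By comparison Slc1a5, which exchanges glutamine and other neutral amino acids and had the brightest probe set of the group, did not pass the test. It had 8216, 9232 and 7149 in TSR samples and 7637, 8583 and 7069 in control samples (0.08, 95% interval -0.15 to 0.30, adjusted p = 0.56). With quantile normalization, however, Slc1a5 did pass (0.30, adjusted p = 0.012). Slc38a2, the amino acid-regulated SNAT2, remained just outside the threshold (0.18, adjusted p = 0.064), and Slc38a1 overlapped between the groups (-0.19, adjusted p = 0.39).

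The group held 2 falls. Slc1a3, the glutamate and aspartate carrier GLAST, had 1652, 1603 and 1840.0 in TSR samples, against 2622, 2382 and 2823 in control samples. The means were 1699 ± 125 in TSR and 2609 ± 221 in control samples (SD, n = 3 each), a log2 fold change of -0.62 (SE 0.07, adjusted p = 0.00019 in limma), and its next brightest probe set fell by 0.51. A dimmer Slc1a3 probe set overlapped between the groups (-0.11, adjusted p = 0.45). Slc43a3, grouped here by family although its known substrates include purine bases, had 1116, 1159 and 1246 in TSR and 1600.4, 1560.4 and 1611 in control samples (-0.44, adjusted p = 0.00018).

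**Figure D3:**
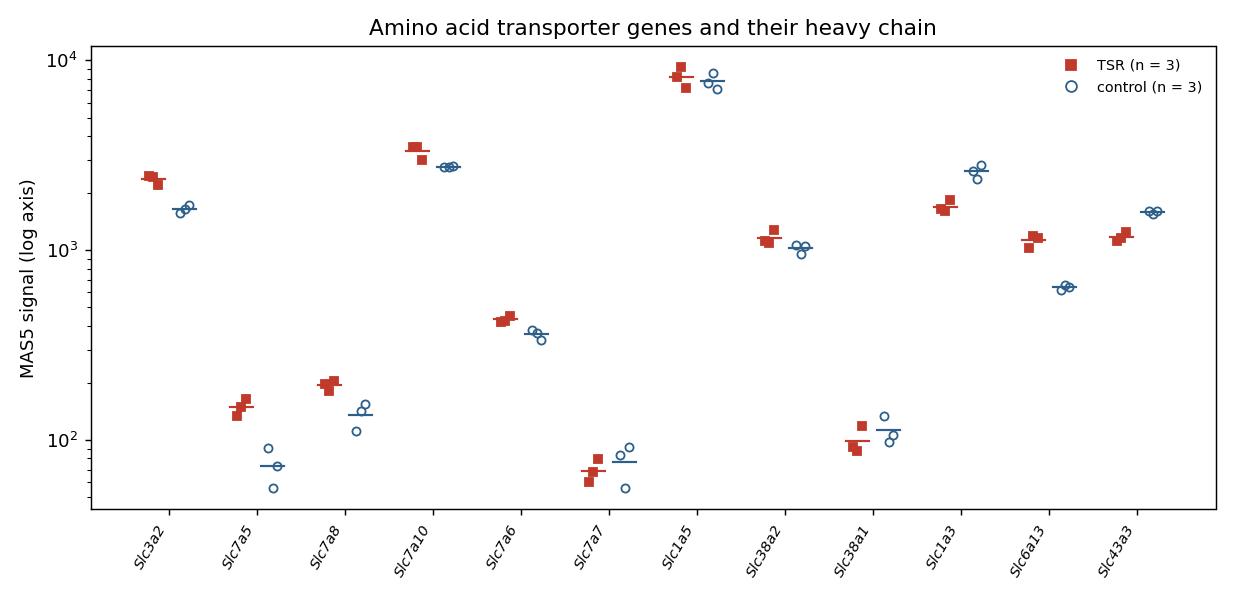
MAS5 signals (log axis) of Slc3a2, the light chains that pair with it and other amino acid carrier genes in the 3 TSR samples (red squares) and the 3 control samples (open blue circles), with means as bars. Slc3a2, Slc7a5, Slc7a8, Slc7a10, Slc7a6 and Slc6a13 lie higher after TSR without overlap, Slc1a3 and Slc43a3 lie lower, and Slc7a7, Slc1a5 and Slc38a1 overlap.

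Carriers of carboxylates and sugars gave 3 rises and 2 falls among 11 tested genes (28 measured), with a median of 0.02 that turned to -0.06 with quantile normalization and -0.09 with median centring. The called share was 45.5%, against 47% of all genes tested. Slc37a4, which moves glucose-6-phosphate into the endoplasmic reticulum, had 465, 484 and 499 in TSR samples, against 305, 330.3 and 295 in control samples (0.64, SE 0.07, adjusted p = 0.00012 in limma). Slc50a1, a sugar carrier of the SWEET family, rose by 0.33 (adjusted p = 0.0019), with 746, 760.0 and 777 in TSR and 567, 612 and 641 in control samples. Slc16a1, the lactate and ketone body carrier MCT1 and the brightest of the group, had 3012, 3057 and 3045 in TSR samples and 2545, 2425 and 2600.4 in control samples. This rise was small (0.27, adjusted p = 0.0010) but exceeded the spread within both groups (SD 23.1 in TSR and 89.6 in control samples). The other members of its family that were tested, Slc16a6, Slc16a7 and Slc16a11, lay between -0.20 and 0.04 and did not pass. Slc13a3, a sodium-coupled carrier of succinate and other dicarboxylates, showed the largest fall of the 117 tested genes. It had 52.8, 50.7 and 53.3 in TSR samples, against 82.0, 89.0 and 99.2 in control samples (-0.78, SE 0.15, adjusted p = 0.0026). A dimmer probe set of Slc13a3, below the filter, was likewise lower in every TSR sample, with 9.95, 23.3 and 19.2 in TSR and 38.7, 36.7 and 24.6 in control samples (adjusted p = 0.13 in limma without the filter). The groups overlapped in the other 2 Slc13a3 probe sets, also below the filter, with means of 20.5 and 7.08 in TSR and 22.0 and 7.18 in control samples. Slc5a6, which takes up biotin, pantothenate and lipoate and belongs by family to the sodium-glucose carriers, had 459.6, 527 and 460.0 in TSR samples and 683, 596 and 674 in control samples (-0.43, adjusted p = 0.0020).

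Carriers of inorganic ions were tested for 16 genes of 36 measured, of which 6 were higher after TSR, 2 lower and 8 not passed (median 0.17, and 0.10 and 0.07 with quantile normalization and median centring). The called share was 50%, near the 47% of all genes tested (24% higher and 23% lower). The 2 largest rises were anion carriers. Slc26a2, a sulphate carrier needed for the sulphation of proteoglycans, had 722, 704 and 671 in TSR samples, against 409.8, 412 and 437 in control samples (0.74, SE 0.06, adjusted p = 1.9e-05 in limma). Its other probe set overlapped between the groups (0.21, adjusted p = 0.37), and the mean of both probe sets gave 0.47 (adjusted p = 0.0023). Slc20a1, the sodium-phosphate carrier Pit1, had 1389.5, 1296 and 1349.5 in TSR samples and 733, 804 and 918 in control samples (0.72, SE 0.08, adjusted p = 0.00012), and its dimmer probe set was higher in every TSR sample without passing (0.54, adjusted p = 0.080). Its relative Slc20a2 did not pass (0.14, adjusted p = 0.21). Slc26a6, an exchanger of chloride, bicarbonate and oxalate, was also higher, with 222, 229 and 190.3 in TSR and 146, 143 and 154 in control samples (0.53, adjusted p = 0.0029). Both Slc26 genes tested thus rose. Slc24a3, which exports calcium together with potassium in exchange for sodium, had 1672, 1844 and 1730.0 in TSR and 1281, 1253 and 1378 in control samples (0.42, adjusted p = 0.00035). The potassium-chloride cotransporters Slc12a4 and Slc12a7 rose by 0.35 and 0.25 (adjusted p = 0.0083 and 0.028), whereas Slc12a2, the sodium-potassium-chloride cotransporter, did not pass by its brightest probe set (-0.05, adjusted p = 0.57). Both dimmer Slc12a2 probe sets were higher in every TSR sample, and 1 of them passed (0.31, adjusted p = 0.043) while the other did not (0.17, adjusted p = 0.15). The call of Slc12a7 was lost without TSR replicate 1, 2 or 3 or control replicate 3 (adjusted p = 0.054, 0.085, 0.054 and 0.058).

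The bicarbonate carriers of the Slc4 family differed from these. Slc4a4, which couples bicarbonate to sodium, had 204, 198 and 192 in TSR samples, against 290.2, 279 and 309.8 in control samples (-0.56, adjusted p = 0.00053 in limma). Its next brightest probe sets had log2 fold changes of -0.11 and -0.17 and did not pass (adjusted p = 0.32 and 0.16). Slc4a3, which exchanges chloride for bicarbonate, had 61.9, 51.2 and 72.8 in TSR and 101, 109 and 85.2 in control samples (-0.67, adjusted p = 0.013). Slc4a2, an exchanger of the same kind, had the opposite sign without passing (0.21, adjusted p = 0.075).

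Promoters were searched for the E-box CACGTG, the motif that the clock factors CLOCK and BMAL1 are known to bind, in the 250 bases before each transcription start (RefSeq annotation of GRCm38.p6). The letters read the same on both strands. Promoters were found for 92 of the 117 tested solute carrier genes. Slc7a5 and Slc19a1, which were among the largest rises, had no promoter in the annotation used and were not searched. The E-box stood in 14 of them (15.2%), against 713 of 6984 tested genes with a promoter (10.2%) and 6.86% of all genes of the annotation. A gene was counted where any of its starts had the motif. It was in 4 of 26 genes that were higher (Slc12a7, Slc16a1, Slc20a1 and Slc41a3), in 1 of 14 that were lower (Slc13a3) and in 9 of 52 that did not pass, which are shares of 15.4%, 7.14% and 17.3%. The D-box TTATGNAA, searched on both strands, was in 2 of 92 (2.17%), against 2.45% of tested genes. The promoters of the members with an E-box and the largest changes, Slc20a1 and Slc13a3, are printed with that of Slc16a1, the brightest such member, and capitals mark the E-box.
Slc20a1: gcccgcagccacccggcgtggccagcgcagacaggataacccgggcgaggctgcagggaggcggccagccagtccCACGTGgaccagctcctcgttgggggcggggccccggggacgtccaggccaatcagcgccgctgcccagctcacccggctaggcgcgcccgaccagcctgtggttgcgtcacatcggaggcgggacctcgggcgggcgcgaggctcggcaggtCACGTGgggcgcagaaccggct
Slc16a1: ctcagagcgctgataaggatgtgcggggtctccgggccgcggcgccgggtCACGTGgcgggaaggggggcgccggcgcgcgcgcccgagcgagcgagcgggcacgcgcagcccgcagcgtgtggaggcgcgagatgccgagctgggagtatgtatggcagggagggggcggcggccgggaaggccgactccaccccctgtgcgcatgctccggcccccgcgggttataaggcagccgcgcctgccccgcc
Slc13a3: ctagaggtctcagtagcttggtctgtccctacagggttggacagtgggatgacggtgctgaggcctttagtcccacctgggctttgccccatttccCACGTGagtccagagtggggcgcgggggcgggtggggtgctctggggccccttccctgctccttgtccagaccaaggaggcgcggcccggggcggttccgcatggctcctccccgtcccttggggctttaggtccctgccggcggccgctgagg
The Slc20a1 sequence is chr2:129198523-129198772 on the plus strand, with E-boxes starting 175 and 22 bases before the transcription start. That of Slc16a1 is chr3:104638414-104638663 on the plus strand, with the E-box 200 bases before the start, and that of Slc13a3 is chr2:165473198-165473447 on the minus strand, with the E-box 154 bases before the start. The motif was present in promoters of genes that moved in opposite directions, and whether a factor binds there was not measured.

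Carriers of iron, zinc, copper, magnesium and haem were tested for 25 of the 27 genes measured. Of these 5 were higher, 4 lower and 16 not passed (median 0.08, and -0.02 with median centring). The called share was 36%, against 47% of all genes tested. Slc48a1, the haem carrier HRG1 of lysosomes, had 1461, 1532 and 1509 in TSR samples, against 1054, 1098 and 1052 in control samples (0.49, SE 0.04, adjusted p = 4.3e-05 in limma), and its other probe set rose by 0.19. The opposite was seen for Slc40a1, ferroportin, the only known exporter of iron. It had 329.8, 325 and 401 in TSR samples, against 599, 554 and 569 in control samples (-0.71, SE 0.09, adjusted p = 0.00024). A dimmer Slc40a1 probe set did not pass (-0.06, adjusted p = 0.83), with 57.6, 73.3 and 69.5 in TSR and 85.0, 55.6 and 69.9 in control samples. The iron importer Slc11a2 (DMT1) lay just outside the threshold by its brightest probe set (0.27, adjusted p = 0.064), although all its TSR samples exceeded the control samples. Of its dimmer probe sets 1 passed (0.50, adjusted p = 0.037), with 164, 131 and 144 in TSR and 118, 114 and 80.4 in control samples, and the other overlapped (0.15, adjusted p = 0.47). Slc11a1, a metal carrier of the phagosomes of macrophages, did not pass either (-0.19, adjusted p = 0.12).

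Zinc carriers moved both ways. Slc39a6, a zinc importer, had 587, 583 and 550.5 in TSR and 426, 398 and 509 in control samples (0.38, adjusted p = 0.0085 in limma). Slc39a7, which releases zinc from the endoplasmic reticulum and Golgi, and Slc30a6, which loads zinc into the secretory pathway, rose by 0.25 and 0.34 (adjusted p = 0.0078 and 0.0064). In contrast Slc39a1, a zinc importer of the plasma membrane and the brightest of the group, had 1300.3, 1410.4 and 1435 in TSR samples, against 1661, 1736 and 1685 in control samples (-0.29, adjusted p = 0.0015). Slc30a4, a zinc exporter into vesicles, had 514, 502 and 522 in TSR and 611, 596 and 721 in control samples (-0.32, adjusted p = 0.0084). The magnesium carriers were likewise divided. Slc41a3 rose by 0.34 by its brightest probe set (adjusted p = 0.028), while a dimmer tested one overlapped between the groups (-0.17, adjusted p = 0.36). Slc41a2 fell by 0.51, with 79.2, 75.6 and 73.7 in TSR and 129.6, 99.8 and 98.3 in control samples (adjusted p = 0.021). The call of Slc41a2 was lost without TSR replicate 2 or 3 or control replicate 1 (adjusted p = 0.051, 0.054 and 0.071). That of Slc41a3 was lost without TSR replicate 1 or 3 or control replicate 1 or 3 (adjusted p = 0.097, 0.075, 0.067 and 0.077). The copper carriers Slc31a1 and Slc31a2 overlapped between the groups by their brightest probe sets (-0.05 and 0.07, adjusted p = 0.60 and 0.83). The dimmer probe set of Slc31a2, however, had means of 70.6 ± 5.82 in TSR and 33.6 ± 18.5 in control samples (SD, n = 3 each) without overlap, and passed the test in limma (1.26, SE 0.42, adjusted p = 0.036). It reached the filter on dim probe sets through its TSR samples alone, and it did not pass without the filter (adjusted p = 0.083).

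**Figure D4:**
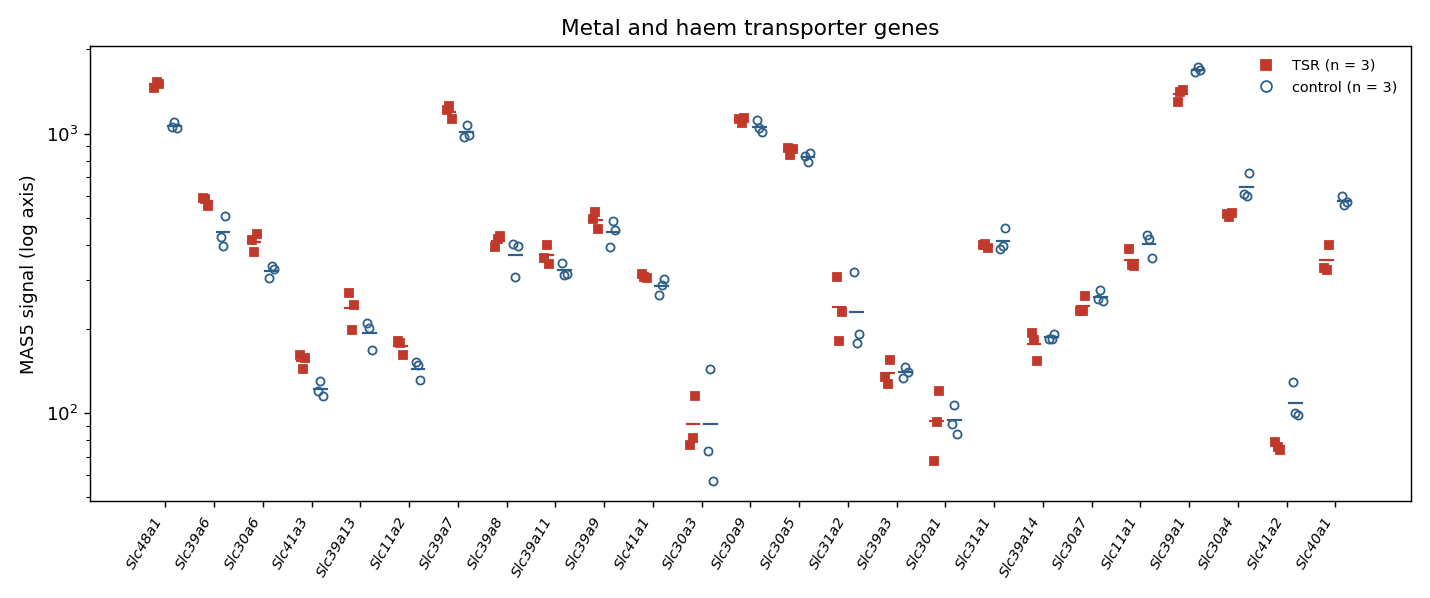
MAS5 signals (log axis) of the 25 tested metal and haem carrier genes, ordered by log2 fold change from the largest rise (Slc48a1) to the largest fall (Slc40a1). Red squares are the 3 TSR samples, open blue circles the 3 control samples and bars their means. The TSR samples lie above all control samples in 7 genes and below them in 4, and 14 genes overlap.

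Among carriers of nucleosides, vitamins and choline 14 of 22 genes were tested, with 2 higher, 3 lower and 9 not passed (median 0.05, and -0.02 and -0.06 with quantile normalization and median centring). The called share was 35.7%, against 47% of all genes tested. Slc19a1, the reduced folate carrier, had the smallest adjusted p of the tested solute carrier genes. It had 1021, 1044 and 957 in TSR samples, against 517, 489 and 441 in control samples, so that its mean was 2.09 times higher after TSR (log2 fold change 1.06, SE 0.07, adjusted p = 6.2e-06 in limma). A further Slc19a1 probe set had 698, 689 and 665 in TSR and 321, 210.5 and 292 in control samples (1.34, adjusted p = 8.5e-05). The thiamine carrier Slc19a2 of the same family did not pass (0.05, adjusted p = 0.59). The choline carrier-like genes were divided, as Slc44a3 rose by 0.44 (adjusted p = 0.0069) and Slc44a1, a choline carrier of the plasma membrane and mitochondria, fell by 0.35. Slc44a1 had 1354, 1347 and 1337 in TSR samples, against 1617, 1813 and 1732 in control samples (adjusted p = 0.00058), and its dimmer probe set did not pass (-0.12, adjusted p = 0.41). The riboflavin carrier Slc52a3 had 106, 86.2 and 90.3 in TSR and 131, 134 and 123 in control samples (-0.46, adjusted p = 0.015, and 0.051 without TSR replicate 2). Slc46a3, a lysosomal carrier, fell by 0.30 (adjusted p = 0.0029), whereas the proton-coupled folate carrier Slc46a1 did not pass by its brightest probe set (0.28, adjusted p = 0.12) but did by its dimmer one (0.65, adjusted p = 0.039), and TSR samples exceeded control samples in both. The dimmer Slc46a1 probe set reached the filter through its TSR samples alone and did not pass without the filter (adjusted p = 0.093).

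The Slc35 family, which supplies the endoplasmic reticulum and the Golgi apparatus with nucleotide sugars and related donors, had 16 of 18 genes tested, of which 6 were higher, 1 lower and 9 not passed (median 0.15). These counts depended on the scaling, as quantile normalization gave 5 rises and 4 falls (median 0.06) and median centring gave 4 of each (median 0.04). With the signals as deposited the called share was 43.8%, against 47% of all genes tested (24% higher and 23% lower). Slc35d1, which brings UDP-glucuronic acid and UDP-N-acetylgalactosamine into the endoplasmic reticulum for chondroitin sulphate synthesis, had 206, 184 and 211 in TSR samples and 127, 126 and 141 in control samples (0.61, SE 0.10, adjusted p = 0.0014 in limma). Slc35b2, which brings the sulphate donor PAPS into the Golgi apparatus, had 281, 227 and 236 in TSR and 172, 189 and 178 in control samples (0.46, adjusted p = 0.0059). Slc26a2, which was higher as well, supplies the sulphate from which PAPS is made. Slc35b4, Slc35a4 and Slc35f6 rose by 0.38, 0.38 and 0.37 (adjusted p = 0.0028, 0.00042 and 0.019), the last losing its call without TSR replicate 1 or 3 or control replicate 1 or 2 (adjusted p up to 0.064). Slc35b1, an ATP and ADP exchanger of the endoplasmic reticulum and the brightest of the family, rose by 0.21 (adjusted p = 0.012) but not with median centring (0.10, adjusted p = 0.21). Slc35f5 fell by 0.17, near the threshold (adjusted p = 0.044), with 497, 521 and 497 in TSR and 587, 576 and 537 in control samples, and kept its call only without control replicate 3 (adjusted p = 0.029) when single arrays were left out. Without TSR replicate 1, 2 or 3 or control replicate 1 or 2 it was lost (adjusted p = 0.12, 0.056, 0.11, 0.14 and 0.099).

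Of 34 genes for carriers of bile acids, organic anions and organic cations only 10 were tested, and 3 were lower after TSR, 1 higher and 6 not passed (median 0.04, and -0.04 and -0.07 with quantile normalization and median centring). The called share was 40%, against 47% of all genes tested. Slc10a6, a carrier of sulphated steroids, had 231, 242 and 215 in TSR samples, against 375, 364 and 346 in control samples (-0.66, SE 0.08, adjusted p = 0.00018 in limma). Slco2a1, which takes up prostaglandins, had 248, 222 and 235 in TSR samples and 327, 312 and 329 in control samples (-0.46, adjusted p = 0.0013). When the probe sets of each gene were averaged, Slco2a1 no longer passed (-0.16, adjusted p = 0.28). Slc22a5, the carnitine carrier OCTN2, was the only member called in both directions. Its brightest probe set had 676, 748 and 720.5 in TSR and 805, 875 and 841 in control samples (-0.23, adjusted p = 0.0097), whereas a dimmer probe set had 60.3, 70.5 and 72.9 in TSR and 48.9, 47.7 and 42.5 in control samples (0.55, adjusted p = 0.025). The direction of Slc22a5 is therefore not settled by these arrays. Slc22a18 was higher near the threshold (0.54, adjusted p = 0.043), with 89.9, 80.9 and 101 in TSR and 58.9, 78.7 and 51.1 in control samples, and it kept its call only without control replicate 2 (adjusted p = 0.013). Without TSR replicate 1, 2 or 3 or control replicate 1 or 3 it was lost (adjusted p = 0.099, 0.054, 0.13, 0.10 and 0.12). Slco3a1 did not pass by its brightest probe set (0.05, adjusted p = 0.75), although another had 260.3, 219 and 234 in TSR and 151, 127 and 115 in control samples (0.87, adjusted p = 0.00056).

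Carriers typical of hepatocytes were considered as a list of 15 measured genes. By the brightest probe set of each gene, 9 were higher in every TSR sample, 1 was lower in every TSR sample and 5 overlapped. Over all genes tested, 29.3% were higher and 27.6% lower in every TSR sample. Over all probe sets below the filter, these shares were 10.2% and 7.07%. The summed signal of the list lay between 683 and 725 in TSR samples and between 443 and 512 in control samples, and 8 of the genes were below the 25th percentile of the array in all control samples. Only 4 were bright enough to be tested. Slc17a3, a voltage-driven exporter of urate known from kidney and liver, had the largest rise of the 117 tested genes by their brightest probe sets, with 56.0, 68.0 and 77.4 in TSR and 25.6, 30.1 and 38.0 in control samples (1.11, SE 0.22, adjusted p = 0.0035 in limma). Its mean log2 signal was 6.06 in TSR and 4.95 in control samples, so that it was tested only because its TSR samples were bright enough. Slc38a3 was also higher and Slc13a3 lower, as given above, and Slc39a14, a zinc and iron importer, did not pass (-0.09, adjusted p = 0.53). The bile acid carrier Slc10a1 (NTCP), below the filter, had 68.2, 47.8 and 62.6 in TSR samples, against 2.33, 6.21 and 6.72 in control samples. Each array's 25th percentile (20.9 to 25.3) exceeded the control signal, so only a bound of at least 2.65-fold higher can be given, from the TSR mean of log2 signals and these percentiles. Its other such probe set was at least 2.12-fold higher, and without the filter both passed the test (adjusted p = 0.0014 and 0.0089).

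Further liver carriers showed the same pattern. Slco1b2, which takes bilirubin and drugs into hepatocytes, had 48.2, 69.1 and 49.3 in TSR samples and 19.7, 16.5 and 17.2 in control samples, at least 2.47-fold higher (adjusted p = 0.0041 in limma without the filter). The amino acid carrier Slc38a4 had 58.6, 47.3 and 39.9 in TSR and 5.93, 1.34 and 4.31 in control samples, at least 2.16-fold higher (adjusted p = 0.0027 without the filter), while its brighter probe set had 29.1, 32.0 and 33.4 in TSR and 27.1, 22.3 and 24.6 in control samples (adjusted p = 0.39). Of all 172 member probe sets below the filter, 23 were higher and 6 lower in every TSR sample, against 10.2% and 7.07% of all probe sets below the filter. Outside the liver list, a dim probe set of Slc39a6 was at least 2.09-fold higher, and Slc14a1, a urea channel, was at least 1.07-fold lower in a dim probe set that did not pass without the filter (adjusted p = 0.16). Markers of hepatocytes moved with these carriers. Of 22 markers measured (24 listed), 21 were higher and 1 (Cyp2e1) lower in every TSR sample, the summed signal lay between 25212.8 and 28771 in TSR and between 15487 and 19236 in control samples, and 9 were below the 25th percentile on all control arrays. Cyp2e1 made up most of that sum in control samples. Left out after its values were seen, it left a sum of the other 21 markers between 14206 and 14783 in TSR and between 470.5 and 590.3 in control samples. Albumin had 3178, 3359.6 and 3077 in TSR and 128, 98.0 and 161 in control samples. The part of other tissue in the rise of liver carriers was not tested. Without the liver list 30 solute carrier genes were higher and 16 lower, of 113 tested.

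**Figure D5:**
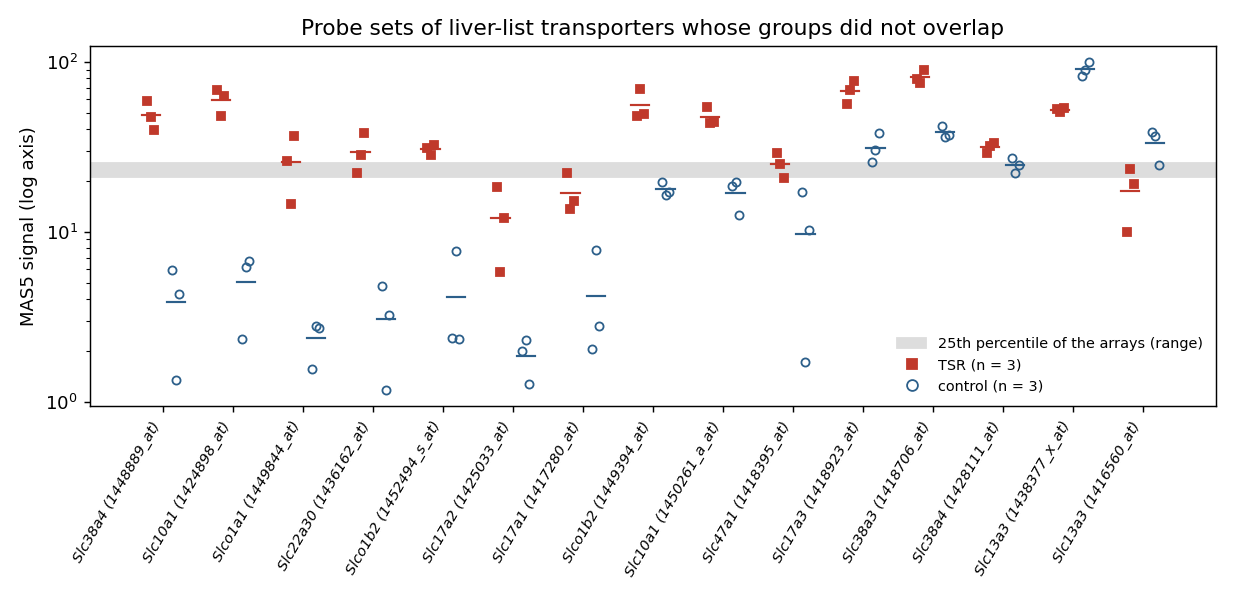
MAS5 signals (log axis) of the probe sets of liver-list carriers in which TSR samples (red squares) and control samples (open blue circles) did not overlap, with means as bars and the probe set named below. The grey band is the range of the 25th percentiles of the 6 arrays, 20.9 to 25.3, and most control signals lie in or below it. TSR signals of Slc10a1, Slc38a4, Slc38a3, Slc17a3 and the brightest Slco1b2 probe set lie above it. For Slc38a3 and Slc17a3 the control signals lie above the band as well.

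Carriers typical of macrophages gave no common direction. Of 7 tested (8 measured), Slc7a8 was higher, Slc40a1 and Slc46a3 were lower and 4 did not pass (median -0.14). The called share was 42.9%, against 47% of all genes tested. Their summed signal lay between 1893 and 2092 in TSR samples and between 2175 and 2289.8 in control samples. By comparison all 14 macrophage markers measured were lower in every TSR sample, and their sum lay between 19480.5 and 19791 in TSR and between 29555 and 30592 in control samples. In a bulk sample, fewer cells of a type and less RNA per cell cannot be told apart, and the part of macrophages in the falls of Slc40a1 and Slc46a3 was not tested. Adipocyte markers were themselves divided, with 3 of 9 higher and 6 lower, and a sum between 74033 and 85805 in TSR and between 90192 and 106429 in control samples. The 5 epididymis markers measured were all too dim to be tested. Of these Adam7 was higher in every TSR sample, with 46.4, 31.8 and 35.7 in TSR and 3.68, 8.90 and 15.9 in control samples, and the other 4 overlapped. The sum of all 5 lay between 70.9 and 80.6 in TSR and between 43.2 and 60.6 in control samples, and its part in the results was not tested.

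Proteins that carry, anchor or power solute carriers were examined beside them. Of 17 tested genes (20 measured), 1 was higher, 5 were lower and 11 did not pass, with a median of -0.12, against 0.01 over all genes. The called share was 35.3%, against 47% of all genes tested (24% higher and 23% lower), so these partner genes were not called more often than other genes. Bsg (basigin), the partner that brings Slc16a1 to the surface, was higher together with it, with 1806, 1793 and 1707 in TSR and 1194, 1173 and 1238 in control samples (0.56, SE 0.05, adjusted p = 2.4e-05 in limma). Emb (embigin), the alternative partner of the monocarboxylate carriers, moved the other way, with 111, 113 and 92.6 in TSR and 172, 209.6 and 177 in control samples (-0.82, SE 0.13, adjusted p = 0.00089). Car4, a carbonic anhydrase on the outer cell surface that works with bicarbonate carriers, fell as did Slc4a4, with 749.8, 659.8 and 710.5 in TSR and 1052, 1002 and 996 in control samples (-0.53, adjusted p = 0.00014). The scaffold Slc9a3r1 (NHERF1), named for but not itself a solute carrier, had 586, 588 and 607 in TSR and 865, 883 and 861 in control samples (-0.55, adjusted p = 3.2e-05). Of the sodium pump, the subunit Atp1b1 and the regulator Fxyd5 fell by 0.45 and 0.44 (adjusted p = 0.00090 and 0.0021), whereas Atp1b3 did not pass (0.10, adjusted p = 0.16). Nor did Atp1b2 (0.04, adjusted p = 0.84), Fxyd1 (-0.02, adjusted p = 0.81) and Fxyd2 (-0.01, adjusted p = 0.91). Fxyd6 was too dim to be tested, and no alpha subunit of the pump was among the partner genes measured.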

How the data were processed

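RNA of epididymal WAT from 3 TSR and 3 control samples was hybridized to 6 Affymetrix arrays. The deposited values are MAS5 signal intensities on a linear scale, which the authors made with Expression Console (version not given in the sources used here), scaling each array to a common target. The trimmed mean signal of every array was 500.2. Columns held no other samples. Of 22690 probe sets, 64 were controls, 20393 had 1 gene symbol, 691 several and 1606 none. All 340 member probe sets were found by Entrez identifier in the RefSeq table, and 0 symbols changed. 3 solute carrier probe sets with several genes were left out.

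Signals were taken to log2. Controls and the lowest 35% by mean log2 signal (below 5.45) were left out, in place of the authors' expression calls, which were not used here. TSR was compared with control in limma 3.58.1 (R 4.3.3), two-sided, allowing for a trend of the variance with intensity (4.86 prior degrees of freedom), and Benjamini-Hochberg adjustment over 14707 probe sets. No probe set was tested alone by permutation, since 3 against 3 allows no exact p under 0.1. The computation was tested on simulated data. Log2 signals correlated with r from 0.991 to 0.993 within and from 0.962 to 0.965 across groups (over probe sets, which are not independent), and the median SD within a group was 0.09 in TSR and 0.10 in control. Bounds for dim probe sets set the mean of log2 signals against the 25th percentile of each array. The promoter sequences came from a RefSeq table of GRCm38.p6, which did not hold every gene.

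Members and lists were chosen with earlier results of these data known. By rule, 37 genes were named: the 12 largest rises and 12 largest falls, the 2 largest rises and falls and the brightest gene of each substrate group, tested liver carriers, and genes called in both directions. The largest rises and falls were taken among called genes without overlap between TSR and control samples. Other members were named after their values were seen.

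As alternatives, the methods' t-test was run on linear and on log2 signals, limma was fitted without the trend or with the replicate number as a block, arrays were quantile normalized or centred on their medians, and the filter was dropped or set to the lowest 50%. Signals were also floored at each array's 25th percentile, probe sets were averaged per gene, the liver carriers were omitted, and every array was left out in turn.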

Additional observations from a re-analysis of the deposited data

How the results depend on the processing

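The count of solute carrier genes higher after TSR (32) lay between 22 and 36 over the alternatives, and that of genes lower (17) between 13 and 24. The numbers of genes tested differed, as the 36 came without the filter (219 tested) and the 13 with the lowest 50% left out (88 tested), against 117 in the main setting. Leaving out an array gave 27 to 33 higher and 14 to 18 lower. The methods' t-test gave 27 higher and 15 lower on linear signals, and 26 and 14 on log2 signals. Probe sets of solute carriers numbered 50 higher and 18 lower, and 29 higher with median centring. Partner protein genes lower numbered 5, but 9 with median centring and 8 with the replicate block, and those higher numbered 1, but 2 with the replicate block and 2 where probe sets were averaged per gene. The log2 fold change of Slc22a5 (-0.23) turned to 0.16 (adjusted p = 0.15 in limma) when its probe sets were averaged. Samples with the same number deviated together with r of 0.015, 0.19 and 0.17, so that the numbers were not taken as pairs, and with the replicate block 32 genes were higher and 18 lower. Of the 35 called genes named by rule, 29 passed the methods' t-test on log2 signals and 33 passed with median centring. Of all 49 called genes, 8 lost the call without at least 1 array, among them Slc12a7, Slc35f6, Slc41a3 and Slc7a6, which were not named by rule. Of the called genes named by rule, Slc22a18, Slc35f5, Slc41a2, Slc52a3, Slc39a6, Slc7a8, Slc4a3, Slc35b1, Slco2a1 and Slc22a5 each missed the threshold under at least 1 alternative. With 3 arrays per group a miss does not show that a gene did not differ, and 102 genes were too dim to be tested.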
